A study of Mus musculus with 4 samples.

Results

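The troponin genes of mouse thigh skeletal muscle were examined at 28 months (3 libraries) and at 18 months (1 library). All 4 libraries were labelled as untreated wild-type males of C57BL/6J, a laboratory inbred strain. The 7 genes Tnnt1, Tnnt2, Tnnt3, Tnni1, Tnni2, Tnnc1 and Tnnc2 were taken by symbol from 40137 gene units in the deposited tables. They held 187 of the 374286 exonic bins, which are pieces of exon between annotated boundaries. The sequencing was made to check splicing calls from exon arrays of these samples, which were not analysed here.

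Troponin is the calcium switch of the thin filament. Its troponin T subunit binds tropomyosin, its troponin I subunit inhibits the interaction of actin with myosin, and its troponin C subunit binds calcium and relieves that inhibition. In skeletal muscle each subunit has a fast-fibre and a slow-fibre gene: Tnnt3 and Tnnt1 for troponin T, Tnni2 and Tnni1 for troponin I, and Tnnc2 and Tnnc1 for troponin C. Tnnc1 also serves the heart. Tnnt2 encodes cardiac troponin T, which is also made in embryonic skeletal muscle, and Tnni3 encodes cardiac troponin I. The troponin T genes are known for short, alternatively used exons near the 5′ end, which vary the N-terminal part of the protein.

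Libraries of 28 months held 67279205 to 76163175 counts and the 18-month library held 65780464. Levels are given as CPM, counts of a gene scaled to a common library size by TMM, a factor that evens out library composition. The TMM factor was 0.877, 1.28 and 0.897 in 28-month replicates 1 to 3, against 0.990 at 18 months, so replicate 2 stood apart. The labels' extraction text describes epidermal keratinocytes, whereas the tissue label reads skeletal muscle. Of 9 keratinocyte genes, Krt5 and Krt15 had 0 counts in every library, and Trp63 was highest, with 14.5, 11.7 and 17.2 CPM at 28 months, against 15.4 at 18 months. The 9 genes summed to 18.4, 13.5 and 21.2 CPM, against 19.1 at 18 months. By contrast, the fast myosin gene Myh4 had 26330, 18080 and 35560 CPM at 28 months, against 27720 CPM at 18 months. The labels do not tie the libraries to separate animals, so p-values measured only the spread between these samples, which may be technical. Every test assumed that the single 18-month library varies as those of 28 months do.

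The fast troponins were among the abundant messages of the muscle. Tnnt3, fast troponin T (ENSMUSG00000061723, chr7:142498836-142516009 on GRCm38, plus strand), had 34713, 27753 and 33400 CPM in 28-month replicates 1 to 3, against 18543 CPM at 18 months. The 18-month library was lower than each library of 28 months. Tnni2, fast troponin I (ENSMUSG00000031097, chr7:142441808-142444410, plus strand), lies on the same chromosome and had 11836, 4472 and 10939 CPM at 28 months, against 10227 CPM at 18 months. Tnnc2, fast troponin C (ENSMUSG00000017300, chr2:164777161-164779967, minus strand), had 16989, 7292 and 14702 CPM at 28 months, against 9669 CPM at 18 months. For both genes replicate 2 was lowest and the 18-month value lay inside the 28-month range. In bulk muscle, fewer fast fibres and less message per fibre cannot be told apart.

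The slow troponins had far fewer counts, and their order across the libraries in TMM-scaled CPM was shared. Tnnt1, slow troponin T (ENSMUSG00000064179, chr7:4504570-4516382, minus strand), had 73.4, 61.0 and 141 CPM at 28 months, against 126 CPM at 18 months. Tnni1, slow troponin I (ENSMUSG00000026418, chr1:135779434-135810989, plus strand), had 29.995, 22.6 and 60.1 CPM, against 50.2 CPM at 18 months. Tnnc1, slow and cardiac troponin C (ENSMUSG00000091898, chr14:31208312-31211729, plus strand), had 49.1, 38.5 and 93.6 CPM, against 87.0 CPM at 18 months. In all 3 genes 28-month replicate 3 was highest in TMM-scaled CPM, the 18-month library next, and replicates 1 and 2 followed in that order. That order depends on the scaling. Unscaled, replicate 2 held more counts than replicate 1 in each gene. It had 5953 against 4904 for Tnnt1, 2207 against 2003 for Tnni1 and 3750 against 3281 for Tnnc1. The totals of replicates 2 and 1 were 75992582 and 76163175 counts. For Tnnc1 the 18-month library held 5664 counts, against 5650 in replicate 3, from a smaller total.

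Tnnt2, cardiac troponin T (ENSMUSG00000026414, chr1:135836354-135852260, plus strand), had few counts, with 8.90, 1.56 and 5.98 CPM at 28 months, against 4.78 CPM at 18 months. Its 18-month value lay inside the 28-month range, which spanned 152 to 594 counts. Tnni3 shared its bins with Dnaaf3, a dynein assembly gene, so that the joined unit, with 27, 32 and 24 counts at 28 months, against 7 at 18 months, gave no level for cardiac troponin I. Of 10 heart markers, 9 were counted alone and summed to 51.7, 61.9 and 50.3 CPM at 28 months, against 85.8 at 18 months. Among them, Nppa (the atrial natriuretic peptide) and Mybpc3 (cardiac myosin-binding protein C) had 0 counts in all 4 libraries. The highest of the others were Sbk2, with 32.8, 54.4 and 33.3 CPM at 28 months, against 70.1 at 18 months, and Myl4, an atrial myosin light chain, with 17.04, 5.999 and 14.89 CPM, against 13.99 at 18 months.

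**Figure D1:**
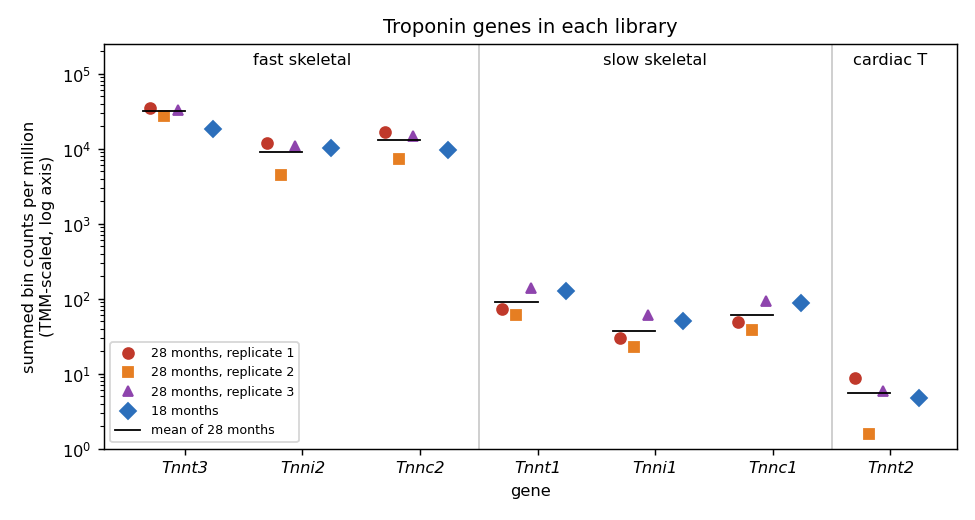
TMM-scaled CPM of the 7 troponin genes on a log axis, with 1 point for each library and a line at the mean of the 3 libraries at 28 months. The 18-month point lay below all 28-month points for Tnnt3, at 18543 CPM, and inside their range for the other 6 genes.

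None of the 7 genes passed the edgeR quasi-likelihood test at a Benjamini-Hochberg adjusted p under 0.05, and neither did any other of the 15376 gene units tested (0% called). At an unadjusted p under 0.05, 753 units passed, or 4.9%, with no troponin among them, and the DESeq2 Wald test called 31 units (0.202%) and no troponin. Tnnt3 averaged 31955 ± 3698 CPM at 28 months (SD, n = 3), and its log2 difference of 28 over 18 months was 0.79 ± 0.65 (SE), with an edgeR adjusted p of 0.872. Tnnc2 differed by 0.43 ± 0.71 and Tnni2 by -0.17 ± 0.72, with edgeR adjusted p of 0.929 and 0.972. The slow genes Tnnt1, Tnni1 and Tnnc1 differed by -0.46 ± 0.52, -0.42 ± 0.57 and -0.53 ± 0.53, with edgeR adjusted p of 0.898, 0.911 and 0.891. Tnnt2 differed by 0.20 ± 0.92, with an edgeR adjusted p of 0.975. In 1 of the 7 genes the 18-month level was under every 28-month level, against 25.4% of all units tested. It was outside the 28-month range in 51.8% of all units.

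One 28-month library decided the calls of 2 fast genes. Without replicate 2, Tnnt3 was 0.90 higher at 28 months on the log2 scale (edgeR adjusted p = 0.0186) and Tnnc2 was 0.73 higher (edgeR adjusted p = 0.031). In that fit 11.9% of 15133 units were called, and the residual spread came from the remaining pair of 28-month libraries. The estimate for Tnni2 turned to 0.18 in the same fit, with an edgeR adjusted p of 0.391.

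Levels were compared between genes per length, as CPM per kilobase of 1 coding bin in each gene. The bin taken was the coding bin of at least 100 bases with the highest mean count. Tnnt3 had 48150, 24864 and 46546 in 28-month replicates 1 to 3, against 24933 at 18 months. On this scale replicate 2 lay just below the 18-month library, so the separation of Tnnt3 in the gene sum was absent from this single bin. Tnnc2 had 35572, 15493 and 30573 CPM per kilobase, against 18696 at 18 months. Tnni2 had 21468, 7788 and 19581 CPM per kilobase, against 12960 at 18 months. For these bins the order Tnnt3, Tnnc2, Tnni2 held within each of the 4 libraries, although the ranges of neighbouring genes over the 28-month libraries overlapped. Another bin of a gene could give another order.

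The slow genes stood in the order Tnnc1, Tnnt1, Tnni1 in all 4 libraries on the same scale. Tnnc1 had 80.6, 66.1 and 158 CPM per kilobase at 28 months, against 133 at 18 months. Tnnt1 had 66.5, 54.8 and 127, against 107 at 18 months. Tnni1 had 20.6, 14.4 and 45.96, against 43.8 at 18 months. Over the 28-month libraries Tnnc1 averaged 101.7 ± 49.7 and Tnnt1 82.8 ± 38.8 (SD, n = 3). That spread lay between libraries that both genes shared, and within each of the 4 libraries Tnnc1 was above Tnnt1. Every Tnni1 value was under every Tnnt1 value. Tnnt2 was lowest, with 3.20, 0.614 and 2.55 CPM per kilobase at 28 months, against 1.05 at 18 months.

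The fast to slow ratio of each subunit was taken inside each library, which removes the effect of library size and scaling. For troponin T, Tnnt3 over Tnnt1 was 473, 455 and 236 in 28-month replicates 1 to 3, against 147 at 18 months. For troponin C, Tnnc2 over Tnnc1 was 346, 190 and 157 at 28 months, against 111 at 18 months. For troponin I, Tnni2 over Tnni1 was 395, 198 and 182 at 28 months, against 204 at 18 months. The 18-month ratio lay below all 28-month ratios for troponin T and C and inside their range for troponin I.

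The mean log2 ratio at 28 months minus that at 18 months was 1.33 for troponin T, 0.97 for troponin C and 0.25 for troponin I. Exact two-sided permutation tests over the 4 libraries gave p = 0.25, p = 0.5 and p = 1, and with 3 libraries against 1 the smallest possible p is 0.25. Benjamini-Hochberg adjustment over these 3 tests cannot bring any of them lower. The mean of the 3 log2 ratios corresponded to a ratio of 401, 257 and 189 at 28 months, against 149 at 18 months, a difference of 0.85 (exact p = 0.5). The SD of that mean over the 28-month libraries was 0.55 on the log2 scale.

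The troponin I ratio depended on which bins were summed. From the highest bin of each gene, Tnni2 over Tnni1 was 773, 401 and 315 at 28 months, against 219 at 18 months, so that the 18-month ratio then lay below all 28-month ratios, with a difference of 1.07. It also lay below them without the bins called by the usage test, with 393, 197 and 181, against 171 at 18 months. From bins of at least 40 bases it did too, with 483.5, 244 and 220, against 192. Without the first and last bin it stayed inside the range, with 440, 220 and 204, against 248. With all bins but without 28-month replicate 1, the difference was -0.10. For troponin T and C the highest bins gave differences of 1.08 and 0.95. As a share of the pair, slow troponin T made up 0.211, 0.219 and 0.421% of counts at 28 months, against 0.675% at 18 months (exact 95% interval 0.661 to 0.690%). These intervals cover counting error only and take each count as a separate fragment. Since 1 fragment over several bins may be counted in each, they may be too narrow even for that.

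**Figure D2:**
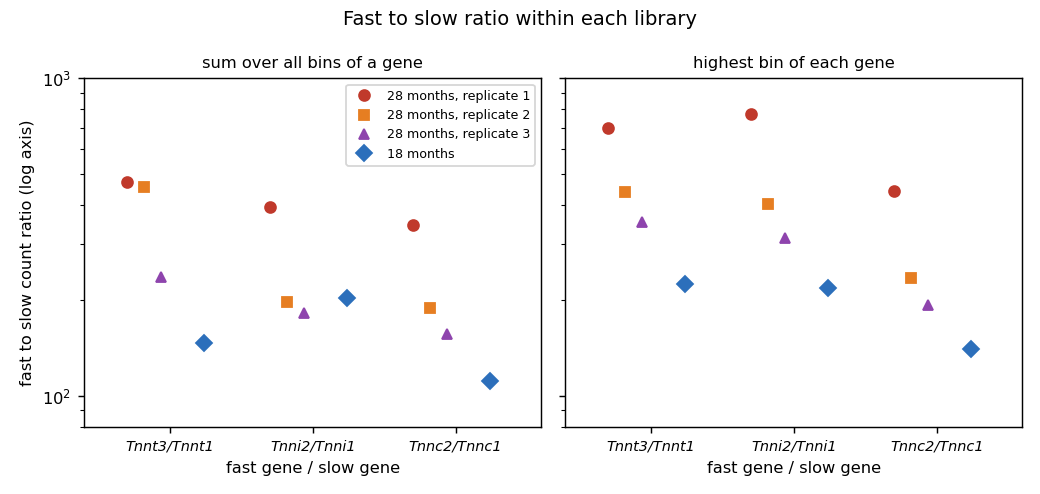
Fast over slow count ratio of troponin T, I and C on a log axis, with 1 point for each library, from the sum of all bins (left) and from the highest bin of each gene (right). From the sums, the 18-month ratio of troponin I, 204, lay among the 28-month ratios, and from the highest bins, at 219, it lay below them.

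Exon usage was tested with edgeR diffSpliceDGE, which asks whether a bin changed relative to the other bins of its gene. The filter on low counts left 37 of 37 bins of Tnnt3, 20 of 20 of Tnni2, 7 of 7 of Tnnc2, 11 of 11 of Tnnc1, 27 of 40 of Tnnt1, 15 of 27 of Tnni1 and 14 of 45 of Tnnt2, and 21 troponin bins had no count in any library. Tnni2 was the 1 gene of the 7 with a changed bin, at an edgeR adjusted Simes p of 8.27e-10, against 3.54% of 11000 genes tested. In Tnni2, 4 of the 20 bins fell at 28 months and none rose. Among all 143485 bins tested, 0.366% were called, 0.158% lower and 0.208% higher at 28 months. Bins 2, 3 and 5 lie at the 5′ end of the gene, and bin 12, which is coding in 1 transcript, lies in an annotated retained intron. The Tnni2 5′ end includes an exon of 7 bases in bin 6 (chr7:142442691-142442697, GRCm38, plus strand), shown in capitals with bases of its neighbours because the start codon atg stands just before it.
Tnni2 bin 6: atgggagaTGAGGAGaagcgcaaca

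Bin 2 (chr7:142441816-142441868) is an untranslated first exon of Tnni2 found in 2 of 6 transcripts used for placement. It held 248, 192 and 242 counts at 28 months, against 44601 counts at 18 months. That was 0.0314, 0.0440 and 0.0366% of the Tnni2 sum at 28 months, against 6.70% at 18 months (exact 95% interval 6.64 to 6.76%). The 18-month share stood far above all 28-month shares, and the fitted log2 usage was -7.56 (edgeR adjusted p = 3.73e-10). The ratio of the mean 28-month share to the 18-month share was 0.00558. Bin 3, which continues this exon downstream, held 13, 9 and 8 counts, against 397 counts at 18 months (log2 -5.28, edgeR adjusted p = 1.48e-07).

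The 5′ end of Tnni2 has a second annotated first exon, bin 4 (chr7:142442330-142442468). Bin 4 held 4586, 2241 and 3492 counts at 28 months, against 4993 counts at 18 months, and its usage did not pass the test (log2 -0.45, edgeR adjusted p = 1). Of the counts in bins 2 and 4 together, bin 2 took 5.13, 7.89 and 6.48% at 28 months (mean 6.50 ± 1.38%, SD, n = 3), against 89.9% at 18 months. The exact permutation p was 0.25, the smallest that 3 libraries against 1 allow. Bin 4 thus held more counts than bin 2 in every 28-month library, and bin 2 held more at 18 months. Bin 4 has 139 bases and bin 2 has 53, so these counts are not per length. Bin 3 and bin 1, the 8 bases before bin 2, were left out of that share. Bin 1 held 213, 119 and 207 counts at 28 months, against 298 at 18 months. The share of bin 4 in the Tnni2 sum was itself no higher at 28 months, with 0.580, 0.514 and 0.529%, against 0.750% at 18 months. Whether the start of transcription moved between the first exons was not tested.

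Bin 5 (chr7:142442469-142442498), where the Tnni2 coding sequence starts, held 3202, 1614 and 2302 counts at 28 months, against 58667 counts at 18 months. Its share was 0.405, 0.370 and 0.349% at 28 months, against 8.81% at 18 months (log2 -4.55, edgeR adjusted p = 8.97e-06). The 7-base exon, bin 6, had 1.78, 2.25 and 1.69% at 28 months, against 8.53% at 18 months (log2 -2.23, edgeR adjusted p = 0.155). Bin 6 lay lower in every 28-month library but did not pass, except where libraries were scaled by total counts alone (edgeR adjusted p = 0.00476) and where replicate 2 was left out (edgeR adjusted p = 1.04e-09). Bins 1 to 6 together made up 2.83, 3.21 and 2.63% of the Tnni2 sum at 28 months, against 24.9% at 18 months, a difference of -22.0 percentage points (exact permutation p = 0.25).

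Of the Tnni2 bins downstream of bin 6, bin 12 passed the test with all libraries. Bins 10, 13 and 15 to 20 had higher shares in every 28-month library, while the shares of a gene sum to a fixed whole. Bin 16 took 15.1, 13.9 and 15.3% of the sum at 28 months, against 8.69% at 18 months (log2 0.78, edgeR adjusted p = 1). Bin 9 took 4.90, 5.39 and 4.71%, against 8.62% at 18 months (log2 -0.81, edgeR adjusted p = 1), and without replicate 2 it was called along with the intron bin 14 (edgeR adjusted p = 0.0272 and 0.00292). Bin 12 (chr7:142443532-142443570) fell to 0.0507, 0.0885 and 0.0373% of the sum at 28 months, against 0.563% at 18 months (log2 -3.45, edgeR adjusted p = 0.000211). That call was lost without replicate 1 (edgeR adjusted p = 0.071) and without replicate 3 (edgeR adjusted p = 0.335), and the call of bin 5 was lost without replicate 3 (edgeR adjusted p = 0.0702). Bins 2 and 3 passed in all 8 fits run, including limma voom with diffSplice and each fit that left out a 28-month library.

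**Figure D3:**
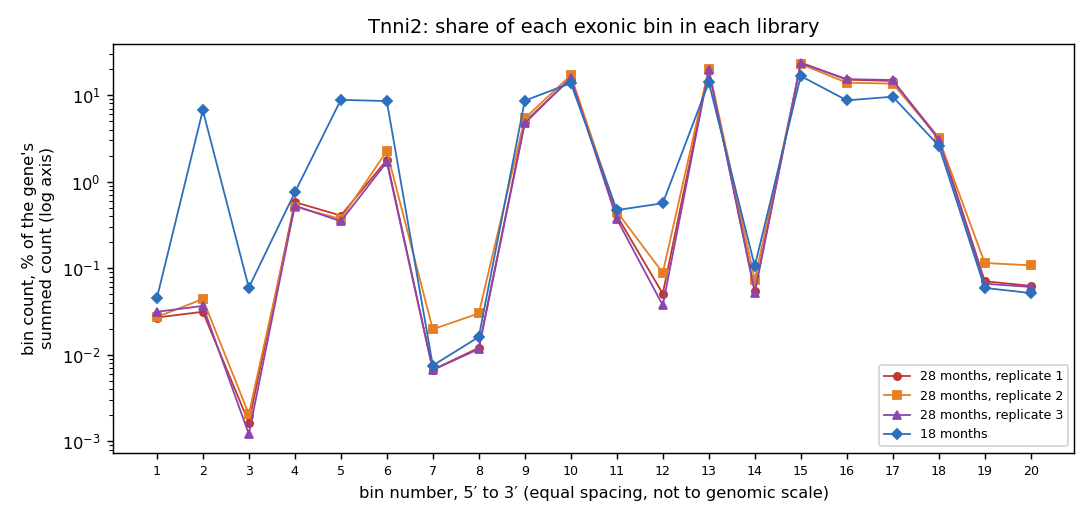
Share of each Tnni2 bin in the summed count of the gene, in percent on a log axis, for bins 1 to 20 from 5′ to 3′, with 1 line for each library. The 28-month lines ran together below the 18-month line at bins 2, 3, 5, 6 and 12, and bin 2 reached 6.70% at 18 months.

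Tnnt3 carried its largest differences between libraries in the short coding exons of the 5′ region, and they did not follow age. The 7 exons of 39 bases or fewer that the following results turn on are shown in capitals with 10 bases of the neighbouring exon on each side. Their sequences come from GENCODE M21 transcripts on GRCm38, plus strand of chromosome 7. Of the 7 exons, 5 end in GAAG, and 6 of the 7 are 73.7% purine or more.
Tnnt3 bin 9: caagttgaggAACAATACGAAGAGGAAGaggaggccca
Tnnt3 bin 11: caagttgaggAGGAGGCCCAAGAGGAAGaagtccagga
Tnnt3 bin 12: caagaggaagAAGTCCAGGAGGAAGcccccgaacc
Tnnt3 bin 14: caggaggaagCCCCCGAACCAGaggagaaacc
Tnnt3 bin 15: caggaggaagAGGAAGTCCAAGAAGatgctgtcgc
Tnnt3 bins 16 and 17: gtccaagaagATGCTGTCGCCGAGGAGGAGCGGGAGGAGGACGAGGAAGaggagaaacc
Tnnt3 bin 20: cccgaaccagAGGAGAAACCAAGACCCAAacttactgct

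Tnnt3 bin 11 (chr7:142504048-142504065) held 49, 101673 and 54 counts in 28-month replicates 1 to 3, against 25 counts at 18 months. Bin 12 (chr7:142504250-142504264) held 29, 66610 and 41 counts, against 787 at 18 months. Bin 14 (chr7:142505288-142505299) held 28, 64712 and 16 counts, against 4099 at 18 months. These 3 exons were thus high in replicate 2, and bins 12 and 14 were next highest at 18 months. Bin 9 (chr7:142502740-142502757) followed replicate 2 as well, with 4, 7441 and 14 counts, against 8 at 18 months.

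Other Tnnt3 exons marked other libraries. Bin 15 (chr7:142505516-142505530) held 88, 527 and 5993 counts at 28 months, against 11 at 18 months, with replicate 3 highest. Bin 17, the downstream part of the exon at chr7:142507750-142507788, held 3314, 805 and 13 counts, against 3 at 18 months, with replicate 1 highest. Bin 20 (chr7:142508335-142508353) was present throughout, with 29780, 78511 and 28395 counts at 28 months, against 33446 at 18 months. Each 28-month library was thus highest for at least 1 of these exons, whereas the 18-month library was highest for none. As a share of the Tnnt3 sum, the 18-month value was lowest for bins 11, 15 and 17. For bin 15 it was 0.00091%, against 0.0038, 0.0195 and 0.297% at 28 months. For bin 17 it was 0.00025%, from 3 counts, against 0.143, 0.0297 and 0.00064%. For bin 11 it was 0.00207%, close to the 0.00211% of replicate 1.

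Upstream of the short exons shown, Tnnt3 bins 2 to 4 and 6 to 8 moved with replicate 2 too. Bin 5 did not, with 17, 20 and 18 counts at 28 months, against 1 at 18 months. The excess in replicate 2 was not confined to exons that many transcripts skip. Bin 8, an exon of 14 bases, is coding in all 23 protein-coding transcripts used, and bin 11 is coding in 22 of them. Bin 8 held 3123, 98518 and 2875 counts at 28 months, against 1487 at 18 months. Bins 2 to 8, which hold the 5′ untranslated region and the start of the coding sequence, made up 1.00, 17.3 and 1.10% of the Tnnt3 sum at 28 months, against 1.05% at 18 months. Bins 1 to 19 together made up 1.22, 26.3 and 1.47%, against 1.58% at 18 months. The 28-month mean of 9.66 ± 14.4% (SD, n = 3) rested on replicate 2 alone. None of the 37 Tnnt3 bins passed the usage test with all libraries, and the smallest p belonged to bin 11 (log2 9.06, edgeR adjusted p = 0.825). Without replicate 2, 4 Tnnt3 bins were called: bins 14 and 12 lower at 28 months (log2 -8.38 and -5.32, edgeR adjusted p = 8.24e-05 and 0.00281) and bins 15 and 17 higher (log2 7.34 and 8.14, edgeR adjusted p = 0.0122 and 0.0168). In that fit 7.23% of 135020 bins were called.

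**Figure D4:**
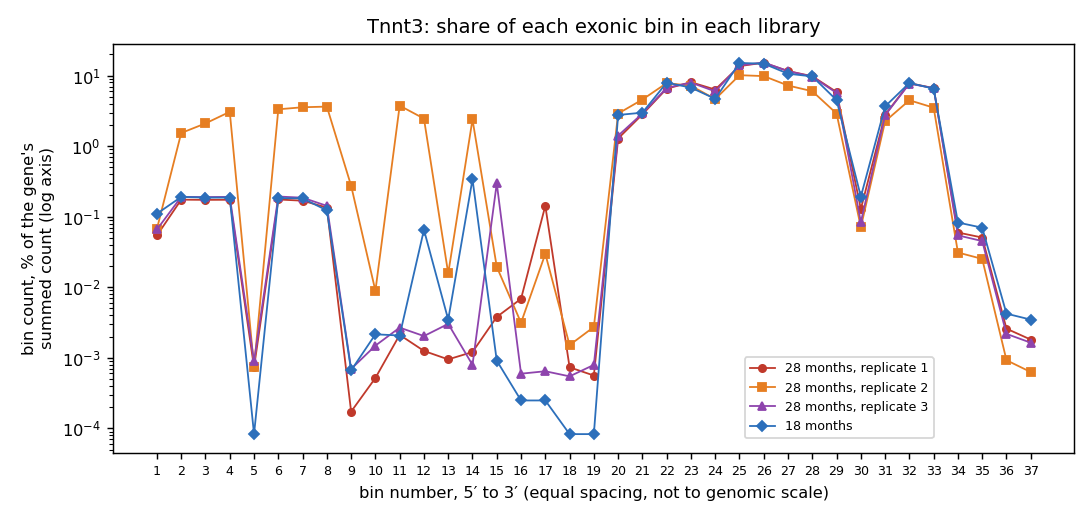
Share of each Tnnt3 bin in the summed count of the gene, in percent on a log axis, for bins 1 to 37 from 5′ to 3′, with 1 line for each library. Replicate 2 of 28 months stood above the other libraries over bins 2 to 4 and 6 to 14, while bin 15 peaked in replicate 3 and bin 17 in replicate 1.

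Exon counts were also set beside exon length. Over all placed genes, coding exons of 1 to 15 bases that no protein-coding transcript skips had a median count of 15.4, 21.2 and 0% of their flanking bins at 28 months, against 18.2% at 18 months (9 exons). Such exons of 16 to 20 bases had 43.9, 63.4 and 41.2% at 28 months, against 49.9% at 18 months (10 exons). Those of 31 to 60 bases had 79.0, 78.3 and 77.6% at 28 months, against 69.6% at 18 months (1663 exons). Tnnt3 bins 9, 12, 14 and 15 are absent from some protein-coding transcripts, so this comparison did not cover them. The part of exon length in the Tnnt3 and Tnni2 patterns was not tested. Bins 23 and 30 of Tnnt1, bins 28 and 41 of Tnnt2 and bin 14 of Tnni1, which are whole coding exons of 4 to 14 bases, had 0 counts in all 4 libraries. The following 3 of them are shown in capitals, since all 10 protein-coding Tnnt1 transcripts used here hold bin 30 and its library counts were nonetheless 0.
Tnnt1 bin 30: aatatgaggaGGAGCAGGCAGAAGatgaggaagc
Tnnt2 bin 41: catccagaagCAAGCTCAGacagagcgga
Tnni1 bin 14: tgccggaagtTGAGaggaaatcca

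Near the 3′ end Tnnt3 has a pair of mutually exclusive coding exons of 41 bases each, bin 29 (chr7:142513665-142513705) and bin 31 (chr7:142514326-142514366), plus strand. They match at 18 of 41 bases, or 43.9%, and are shown with the differing bases in capitals.
Tnnt3 bin 29: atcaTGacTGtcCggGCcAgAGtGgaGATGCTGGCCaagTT
Tnnt3 bin 31: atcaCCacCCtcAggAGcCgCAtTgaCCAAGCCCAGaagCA

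Bin 29 held 135922, 78594 and 114608 counts at 28 months, against 54361 counts at 18 months. Bin 31 held 64638, 61054 and 55383 counts, against 44251 counts at 18 months. The upstream exon, bin 29, thus took 67.8, 56.3 and 67.4% of the pair at 28 months (mean 63.8 ± 6.5%, SD, n = 3), against 55.1% at 18 months (exact 95% interval 54.8 to 55.4%). It was the larger of the pair in all 4 libraries. The 18-month share lay below all 28-month shares, though replicate 2 came close to it, and the difference of 8.70 percentage points had an exact permutation p of 0.25. Neither bin passed the usage test (log2 0.13 and -0.49, edgeR adjusted p = 1 for both).

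Bins that the annotation places in retained introns and outside all coding sequence took a larger part of the counts at 18 months in 4 troponin genes. In Tnnc1 the retained-intron bin 7 (chr14:31210679-31210998) held 2, 4 and 2 counts at 28 months, against 74 counts at 18 months, which was 0.0610, 0.107 and 0.0354% of the Tnnc1 sum, against 1.31% at 18 months. In Tnnt1 such bins made up 0.0816, 0.101 and 0.0352% at 28 months, against 1.04% at 18 months. In Tnni2, with the coding bin 12 left out, they made up 0.480, 0.575 and 0.442%, against 0.599% at 18 months, and in Tnnt3 0.130, 0.0800 and 0.0852%, against 0.195% at 18 months. In all 4 genes the 18-month share lay above every 28-month share. The same held for 545 of 1283 placed genes averaging 10 or more such counts (42.5%). The exact permutation p was 0.25 in Tnnc1, Tnnt1 and Tnnt3 and 0.5 in Tnni2, where the gap to replicate 2 was small. In Tnnt2 the 18-month share of 0.965% lay inside the 28-month range of 0.277 to 1.97%.

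Single retained-intron bins of the slow genes did not pass the usage test with all libraries. Bin 7 of Tnnc1 had a log2 usage of -4.41 (edgeR adjusted p = 0.102), and bin 14 of Tnnt1 (chr7:4508584-4508625), with 2, 1 and 0 counts at 28 months against 85 counts at 18 months, had -5.97 (edgeR adjusted p = 0.14). Without replicate 3 both were called, at edgeR adjusted p of 0.00732 and 0.0405. Both rest on 0 to 4 counts in a library of 28 months, where counting error is large.

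**Figure D5:**
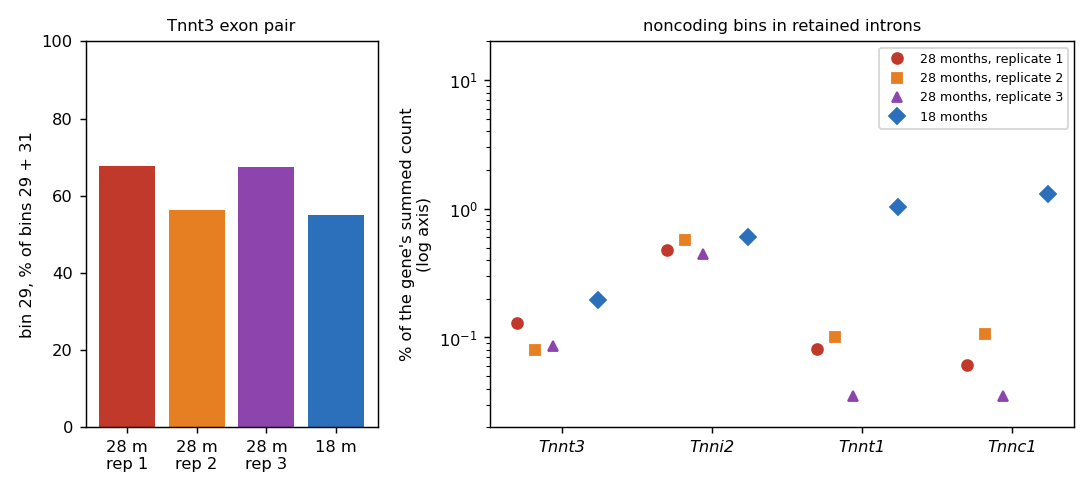
Left, share of bin 29 in the summed counts of the Tnnt3 exon pair, in percent, 1 bar for each library. Right, share of noncoding bins annotated in retained introns in the summed count of Tnnt3, Tnni2, Tnnt1 and Tnnc1, in percent on a log axis, where the 18-month point lay above every 28-month point in each gene.

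No bin of Tnni1, Tnnt1, Tnnt2 or Tnnc2 passed the usage test with all libraries, and their shares along the transcript are given as values. In Tnni1, bins 1 to 17 at the 5′ side made up 17.1, 19.6 and 14.5% of the sum at 28 months, against 5.85% at 18 months. Its 3′ untranslated bins 26 and 27 made up 21.4, 20.6 and 21.3%, against 34.0% at 18 months. The 18-month share thus lay below all 28-month shares at the 5′ side and above them at the 3′ side, each with an exact permutation p of 0.25. The Tnni1 bin with the smallest usage p was bin 17 (log2 1.77, edgeR adjusted p = 1).

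In Tnnt1, bins 24 to 40, which form its 5′ region because the gene lies on the minus strand, made up 2.20, 4.20 and 8.28% at 28 months, against 8.30% at 18 months (exact p = 0.5). In Tnnt2, bins 30 to 45 at the 3′ side made up 90.7, 92.1 and 97.0% at 28 months, against 83.3% at 18 months (exact permutation p = 0.25). In Tnnc2 the 6 coding bins each took 8.46 to 24.4% of the sum in the 28-month libraries, against 10.7 to 23.3% at 18 months, and none passed the test. The 18-month share lay above all 28-month shares for bins 1, 2 and 6 and below them for bins 3, 4 and 5.

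Other thin filament genes were set beside the troponins. Of 17 listed genes, none passed the edgeR test, and their median log2 difference was -0.07, against 0.06 over all units tested. The tropomyosin genes Tpm1 and Tpm2, which encode the rod that troponin T binds, had log2 differences of 0.33 and 0.11, while Tpm3, the slow-fibre tropomyosin, had -0.70, with edgeR adjusted p of 0.946, 0.976 and 0.859. Actc1, the cardiac actin, had 51.4, 34.6 and 79.8 CPM at 28 months, against 174.5 CPM at 18 months (log2 -1.66, edgeR adjusted p = 0.859). None of 15 fast-fibre genes and none of 13 slow-fibre genes passed either, with medians of 0.26 and 0.06. Their summed CPM in 28-month replicate 2, 104700 for the fast list, was below the 215800 and 219400 CPM of replicates 1 and 3 and the 140700 CPM at 18 months. The fast troponins Tnni2 and Tnnc2 were likewise lowest in replicate 2. Of 14 splicing regulators, none passed, and 9 had an 18-month value above all 28-month values, against 26.4% of all units. Their median log2 difference was -0.38.

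Markers of other cells also moved between libraries. For 7 of 7 macrophage genes the 18-month library was lowest, against 25.4% of all units, and their summed level was 95.4 to 164 CPM at 28 months, against 57.9 at 18 months. For 6 of 6 Schwann cell genes it was highest, against 26.4% of all units, with summed levels of 96.0 to 183 CPM at 28 months, against 324 at 18 months. Red blood cell genes summed to 145 to 3785 CPM at 28 months, against 182.5 at 18 months. For 4 of 5 adipocyte genes the 18-month value was lowest, also beside 25.4% of all units. The part of these cells in the troponin levels, ratios and bin shares was not tested.

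Some genes followed the troponins closely across the 4 libraries. Among 2711 other genes with a mean of at least 50 CPM, likeness was the root mean square difference of log2 CPM after centring each gene. The summed fast troponins had 63537, 39517 and 59042 CPM at 28 months, against 38440 CPM at 18 months, and the nearest named genes were Cdc123 (0.0129), Prkag1 (0.0183), Cwc15 (0.0257) and Eif2b1 (0.0273). The summed slow troponins had 153, 122 and 295 CPM, against 263 CPM at 18 months. Their nearest genes were the transporter gene Slc7a2 (0.0941), the slow myosin gene Myh7 (0.116), Tpm3 (0.116), Zranb1 (0.182) and Pnrc1 (0.186). Myh7 had 64.6, 53.1 and 147 CPM, against 105 CPM at 18 months. This was the same order of libraries as the slow troponins had in TMM-scaled CPM. With 4 libraries such likeness is a description.

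The slow troponin promoters are shown because those genes kept 1 order across libraries in TMM-scaled CPM. RefSeq promoter windows on GRCm38.p6 matched 5 of the 7 genes, Tnnt1, Tnnt2, Tnni1, Tnnc1 and Tnnc2. The search covered 250 bases before to 50 after each start, on both strands. The 120 bases before the start are printed, in the direction of the gene, with matches in capitals: Tnnt1 at chr7:4515976-4516095 (minus strand), Tnni1 at chr1:135799301-135799420 (plus strand, the more upstream of 2 starts) and Tnnc1 at chr14:31208192-31208311 (plus strand).
Tnnt1 promoter: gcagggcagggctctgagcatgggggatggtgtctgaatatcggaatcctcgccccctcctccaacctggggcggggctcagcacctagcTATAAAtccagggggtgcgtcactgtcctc
Tnni1 promoter: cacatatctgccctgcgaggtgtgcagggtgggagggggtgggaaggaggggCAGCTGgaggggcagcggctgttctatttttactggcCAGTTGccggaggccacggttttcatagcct
Tnnc1 promoter: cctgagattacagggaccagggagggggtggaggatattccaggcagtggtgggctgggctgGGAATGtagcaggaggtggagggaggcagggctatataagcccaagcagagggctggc

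The motifs were the E-box CANNTG, the MCAT motif CATTCC, the TATA box TATAAA and the MEF2 site. The MEF2 site was searched as YTAWWWWTAR, where Y is C or T, W is A or T and R is A or G. Of 32851 promoters, 72.3% held an E-box, 14.7% an MCAT motif, 13.6% a TATA box and 3.19% a MEF2 site. Each of the 3 slow windows held an E-box, which in Tnnt1 and Tnnc1 lay outside the printed bases. The string TATAAA was matched in the Tnnt1 window and the MCAT motif, on the opposite strand, in the Tnnc1 window. Other forms of the TATA box, the MCAT motif and the MEF2 site were not searched for. No slow window held a MEF2 match, and no motif was shared by all 3 beyond the E-box, which most promoters hold.

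Some counts could include neighbours. Tnnt3 overlaps Prr33, Tnnc2 overlaps Ube2c and Tnnc1 overlaps Nisch, each on the opposite strand. The strand setting of the counting was not given in the sources used here, so reads of overlapping genes cannot be told apart where exons meet. Nisch had 5392, 10818 and 4957 counts at 28 months, against 4526 at 18 months. Tnnc1 had 3281, 3750 and 5650 counts, against 5664 at 18 months. Prr33 had 5782, 4557 and 5638 counts at 28 months, against 7454 at 18 months. Ube2c had 380, 153 and 293 counts, against 109 at 18 months. These are sums over whole genes, and the part of such reads in the troponin counts was not tested.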

How the data were processed

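RNA-seq libraries of thigh muscle at 28 months (3) and 18 months (1) were used. Per the submitters' processing notes, bcl2fastq 1.8.3 and TopHat2 2.0.4 were used with GRCm38. The authors deposited unnormalized counts of each bin. What counted the reads, with which annotation and with which strand option, was not given in the sources used here. Bins are named as by the DEXSeq script, where 1 fragment over several bins adds to each of them, so gene sums count some fragments repeatedly. Entries that name no gene (3.36 to 4.56% at 28 months, against 5.20% at 18 months) were set aside.

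Gene sums averaging 10 counts or more entered edgeR's quasi-likelihood test with TMM scaling, whose 2 residual degrees of freedom come from the 28-month replicates. Bin usage was tested with diffSpliceDGE, and p-values were Benjamini-Hochberg adjusted over all features. Ratios and shares used exact two-sided permutation tests, and intervals are exact binomial at 95%. Bins were placed on GENCODE M21, with transcripts of an ID number below 195000: bin numbers then equalled those of the files in 22034 of 24942 genes with several bins (88.3%), including all 7 troponins, which does not prove each placement. All 7 genes passed the filter on low counts. Named bins were those called, the smallest p of each gene, and alternative coding exons of troponin T, not all of which are given. The members and lists were chosen with earlier results of these data known. Alternatives were other scaling, filters, tests and bins, and leaving out each 28-month library. Steps were tested on simulated data. Software: edgeR 4.0.16, DESeq2 1.42.0 and limma 3.58.1 in R 4.3.3; scipy 1.17.1, numpy 2.4.6, pandas 2.3.3 and matplotlib 3.10.9 in Python 3.11.15.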

Additional observations from a re-analysis of the deposited data

How the results depend on the processing

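Leaving out 28-month libraries moved the counts of calls most. Over the 3 such fits, 0 to 2 troponin genes, 0 to 34 list members, 3 to 11 troponin bins and 1 to 2 troponin genes with a changed bin were called, against 0, 0, 4 and 1 with all libraries. The highest counts came without replicate 2, and without replicate 3 there were also 2 genes with a changed bin. The log2 estimate for Tnni2 ranged from -0.41 to 0.18, turning positive without replicate 2, and that for Tnnt2 from -0.34 to 0.66, turning negative without replicate 1. The differences of the log2 ratios ranged from 1.16 to 1.66 for troponin T, -0.10 to 0.45 for troponin I, 0.63 to 1.20 for troponin C and 0.56 to 1.10 for their mean. From the highest bin of each gene, the difference for troponin I was 1.07, and from bins of at least 40 bases, chosen after seeing the data, 0.63. The share of bin 29 in the Tnnt3 pair differed by 6.72 to 12.5 percentage points and that of Tnni2 bins 1 to 6 by -22.2 to -21.9. The median of all genes moved to 0.10 with total counts and 0.14 without a count filter. The causes were not tested. No paired analysis was possible because only 1 library was at 18 months.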
